A study of Mus musculus with 12 samples.

Results

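The hepatocyte identity transcription factors described here are 9 genes whose products set and maintain the gene program of the liver cell: Hnf4a, Foxa1, Foxa2, Foxa3, Cebpa, Cebpb, Nr1h4, Nr1i3 and Ppara. They were picked by name for what they are known to do, with earlier results of these data known. They were found by gene symbol and Entrez identifier among the 26301 genes of the count table. All 9 passed the filter on low counts, which left 13882 genes for testing. Hepatocytes keep their identity through a network of such factors, which bind the control regions of liver genes and of each other's genes. HNF4A is a nuclear receptor found at the enhancers of a large part of the liver program, the FOXA proteins open closed chromatin for other factors, and the C/EBP proteins are leucine zipper factors of liver metabolism and the acute-phase response. FXR (Nr1h4), CAR (Nr1i3) and PPARA are nuclear receptors that pair with RXR and answer to bile acids, foreign compounds and fatty acids.

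RNA was measured in 12 samples of mice on an FVB background, 4 control livers of wild-type mice, 4 spontaneous liver tumors with E2f7 and E2f8 deleted through Alb-Cre (labelled DKO) and 4 such tumors with Rb1 deleted as well (labelled TKO). E2F7 and E2F8 are repressors of cell cycle genes, RB holds the activating E2F proteins in check, and Cre driven by the albumin promoter acts in hepatocytes, so other cells of a tumor keep the intact genes. The mice were ageing animals, with the age given as adult, and the controls are described as age-matched and elsewhere in the study as littermates. Euthanasia is described as done once health had declined to fixed limits, and the tissue was snap-frozen. For its lifespan cohorts the paper states that mice were either euthanized when moribund or found dead. The effect of the deletions and that of being a tumor cannot be told apart in the comparisons with control livers, since no tumor of another genotype and no tumor-free liver of a deleted genotype was analysed here.

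Sequencing of poly(A) RNA was done with SOLiD chemistry, and total counts per library ran from 9165812 (control 2) to 16424973 (DKO 1). Values are given as CPM, the unit of edgeR that sets counts against library sizes scaled by TMM, and a count of 3 stood for 0.177 to 0.369 CPM depending on the library. The lowest count of any member in a library was 187 (Foxa1 in control 2) and the highest 14194 (Hnf4a in DKO 4), and counting error alone came to between 0.839% of a value (Hnf4a in DKO 4) and 7.31% (Foxa1 in control 2). P-values of the main test rest on the spread between samples within groups, 4 a group. This spread is pooled over all 12 libraries in 1 fit, so libraries outside a comparison also bear on its p-values. Control 2 and control 3 were more alike (chi-square per gene 18.5) than any other pair of control livers (60.7 to 70.8) or of tumors of a genotype (66.9 and above), although each group is described as separate livers. The sample descriptions end in codes of a letter and a number that the sources used here do not explain, these 2 libraries share the letter e, and the letters b, e and j recur across genotypes, so a shared litter or batch cannot be told apart from chance likeness. The study speaks of control littermates, but which of these 12 mice were littermates is not given in the sources used here.

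The deleted genes were looked at in every library first. E2f7 was near the limit of detection, at 1.11, 0.861, 0.542 and 0.732 CPM in control livers 1 to 4, 1.84, 1.58, 0.946 and 0.236 CPM in tumors DKO 1 to 4, and 0.844, 0.782, 0.690 and 0.895 CPM in tumors TKO 1 to 4. E2f8 was at 4.52, 8.97, 5.96 and 5.49 CPM in control livers, 7.59, 45.6, 11.4 and 17.3 CPM in tumors labelled DKO and 26, 13.8, 52.2 and 12.3 CPM in tumors labelled TKO. E2f8 was higher in most tumors than in control livers, while E2f7, on counts of 4 to 24, overlapped between the groups and was lowest in DKO 4. A count over a whole gene does not show whether an exon is missing, so the tumors are named by their labels throughout. Rb1 was at 10.7, 6.52, 8.27 and 7.69 CPM in control livers, 11.3, 8.38, 7.99 and 8.37 CPM in tumors labelled DKO and 4.22, 5.47, 4.91 and 3.21 CPM in tumors labelled TKO. All 4 tumors labelled TKO were below every other library for Rb1. Exons of E2f8 overlap those of Gm2788, and exons of Rb1 those of Rcbtb2 and Lpar6, on the opposite strand, so reads of these genes cannot be told apart here. Xist stayed at or below 0.460 CPM and Ddx3y, on the Y chromosome, between 47.9 and 81.2 CPM in all 12 libraries. Kdm5d, another gene of the Y chromosome, was low in DKO 1 (2.15 CPM), DKO 2 (1.11 CPM) and TKO 1 (2.29 CPM) against 8.46 to 16.5 CPM in the other libraries.

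In control livers the members stood at very different levels. Per kilobase of exon, Hnf4a was at 127 ± 13.4 CPM (SD, n = 4 here and below), Cebpa at 110 ± 28.7, Ppara at 93.7 ± 13.2, Nr1h4 at 56.4 ± 8.58 and Foxa3 at 37.2 ± 8.12. Cebpb followed at 29.4 ± 9.46 CPM per kilobase, Nr1i3 at 18.7 ± 5.81, Foxa2 at 11.4 ± 1.90 and Foxa1 at 6.30 ± 1.90. Neighbours in this order lay within their combined SDs except Ppara and Nr1h4, Nr1h4 and Foxa3, and Foxa2 and Foxa1, which were further apart. Among the 11825 tested genes with an annotated exon length, these levels ran from the 62.3rd percentile for Foxa1 to the 96.7th for Hnf4a. The length joins the exons of all annotated forms of a gene, so order and percentiles depend on that annotation. It was 4414 bases for Nr1i3 and 1504 for Cebpb. Without division by length, Nr1i3 was at 82.7 ± 25.6 CPM in control livers and Cebpb at 44.2 ± 14.2. In tumors labelled DKO the order of levels per kilobase was Hnf4a (146 ± 21.7 CPM), Ppara (72.8 ± 12.7), Cebpa (59.6 ± 6.85), Foxa3 (55.5 ± 12.5), Nr1h4 (31.4 ± 7.29), Cebpb (15.2 ± 3.81), Nr1i3 (8.86 ± 3.98), Foxa2 (8.11 ± 0.247) and Foxa1 (6.51 ± 2.05). Hnf4a was thus the most abundant and Foxa1 the least abundant member in both, and Foxa3 stood above Nr1h4 in the tumors labelled DKO but below it in control livers. In tumors labelled TKO, Hnf4a was at 133 ± 21.9 CPM per kilobase, Foxa3 at 52.6 ± 30.2, Nr1h4 at 39.7 ± 4.70 and Foxa1 at 6.32 ± 1.48.

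**Figure D1:**
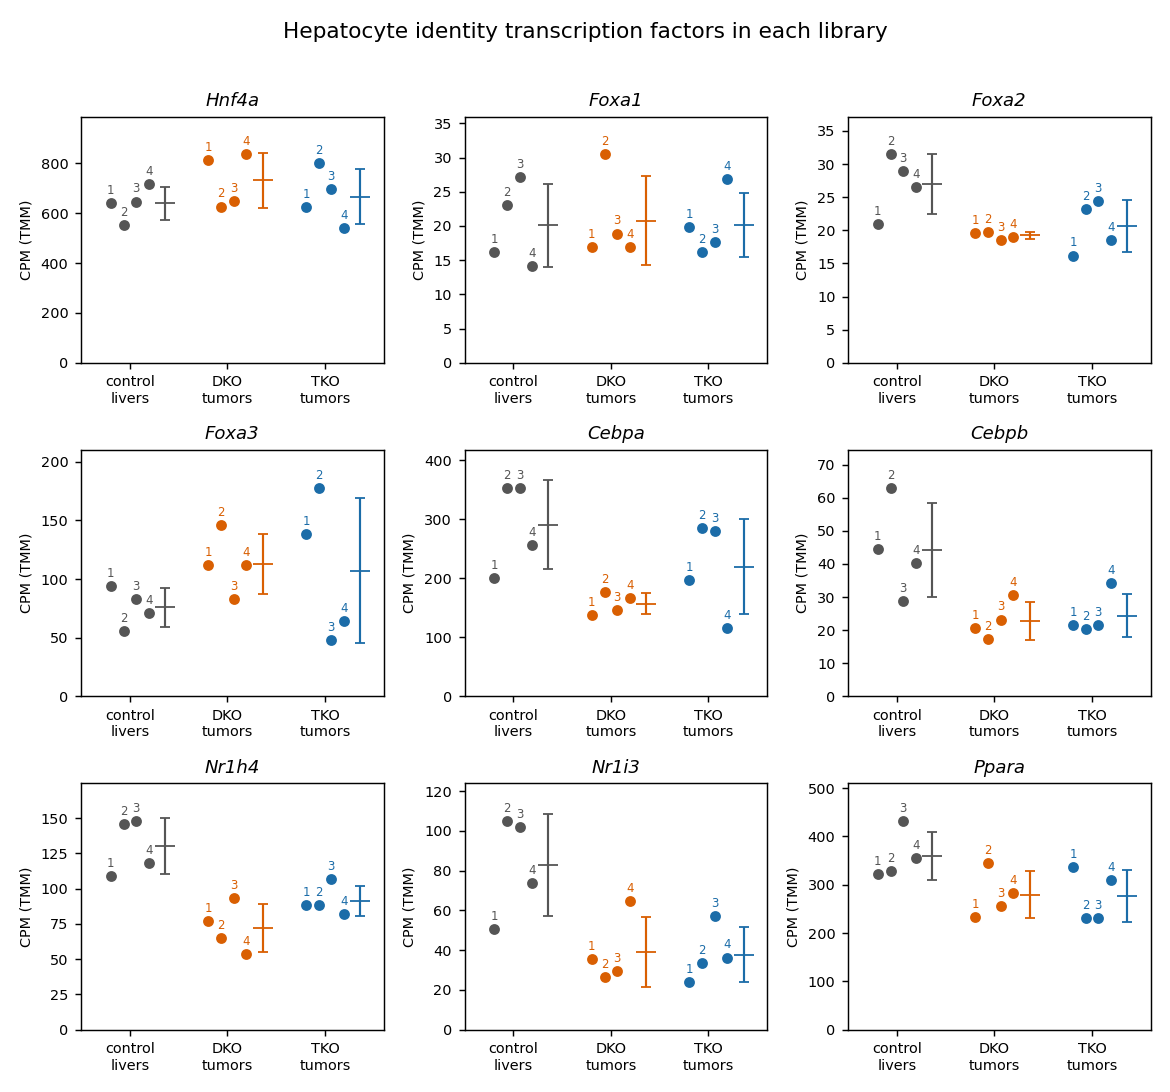
Level of each of the 9 transcription factors in CPM (TMM scaling, vertical axis from 0) in 4 control livers, 4 tumors labelled DKO and 4 tumors labelled TKO, with points numbered by library and bars for the group mean ± SD. All tumors lie below all control livers for Nr1h4, while the groups overlap for Hnf4a and Foxa1.

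The first question was whether the tumors kept the expression of these factors. Nr1h4 fell in tumors labelled DKO, Nr1h4 and Cebpb fell in the pooled 8 tumors against the control livers, and no member was called higher in any comparison. By edgeR's quasi-likelihood test at an adjusted p of 0.05, 1 of 9 members was called in tumors labelled DKO against control livers, where 2.42% of all genes were called, and 0 of 9 in tumors labelled TKO, where 0.0864% were. In the contrast of the mean of both tumor genotypes with control livers 2 of 9 were called against 2.48% of all genes, and between the tumor genotypes 0 of 9 against 0%. The unadjusted p was under 0.05 for 5, 4, 6 and 0 members in these comparisons, and for 24%, 16.3%, 23.0% and 9% of all genes. DESeq2 called 4, 1, 4 and 0 members, beside 10.4%, 3.49%, 9.49% and 0.398% of all genes it tested, and limma's voom with quality weights 5, 0, 5 and 0, beside 13.0%, 0.699%, 13.1% and 0%. These shares of all genes are also the ones to set beside the counts by each tool for the lists of genes below. All members called by DESeq2 were lower in the tumors. The values of the groups did not overlap for 3 members in tumors labelled DKO (16.2% of all genes), 1 in tumors labelled TKO (7.67%), 1 in all tumors (3.66%) and 0 between the tumor genotypes (4.87%). Fewer hepatocytes in a tumor and less RNA of a factor per hepatocyte cannot be told apart in these bulk samples.

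The median log2 fold change of the 9 members was -0.49 in tumors labelled DKO, -0.39 in tumors labelled TKO, -0.44 in all tumors and -0.01 between the tumor genotypes, against 0.02, 0.02, 0.02 and 0.01 over all genes tested. Tumors of both genotypes were compared with the same 4 control livers, so their values are not independent. In each of the comparisons with control livers 3 members, Hnf4a, Foxa1 and Foxa3, had a log2 fold change above 0, and the sign of Foxa1 turned with voom with quality weights in all of them. Total counts as the only scaling moved the median of all genes to 0.07, 0.17, 0.12 and 0.11 in the 4 comparisons, and with it 0 members were called. It also moved the split of called genes from 196 higher and 140 lower to 52 and 7 in tumors labelled DKO, from 7 and 5 to 8 and 1 in tumors labelled TKO, and from 174 and 170 to 51 and 10 in all tumors.

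Calls in these data hung on single libraries, among them control 2 and control 3, the pair most alike. Without control 2, control 3, control 4, DKO 1, DKO 2, DKO 4 or TKO 1 the count of members called in tumors labelled DKO went from 1 to 0, and without TKO 4 to 2. In all tumors it went from 2 to 0 without any of control 1 to 4, DKO 1, DKO 2, TKO 1 or TKO 2, to 1 without DKO 3, DKO 4 or TKO 4 and to 3 without TKO 3. The number of all genes called in tumors labelled DKO, 336, became 166, 0, 0 and 5 without control 1, 2, 3 and 4, 5, 7 and 7 without DKO 1, 2 and 4, 96 without TKO 1 and 651 without TKO 3. For tumors labelled TKO, 12 genes became 0 without control 1, control 2, control 3, DKO 2 or TKO 2, 1 without control 4, DKO 4 or TKO 1, 2 without DKO 1 and 231 without TKO 3. For all tumors, 344 genes became 19, 0, 0 and 6 without control 1, 2, 3 and 4, 6, 15 and 87 without DKO 1, 2 and 4, 0 without TKO 1 or TKO 2 and 1019 without TKO 3.

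Hnf4a (Entrez 15378, mm9 chromosome 2 from 163332544 to 163398646, plus strand) was at 642, 553, 647 and 717 CPM in control livers 1 to 4, at 814, 627, 649 and 837 CPM in tumors labelled DKO and at 626, 801, 696 and 541 CPM in tumors labelled TKO. The highest values were in DKO 1, DKO 4 and TKO 2 and the lowest in TKO 4, and the 3 groups overlapped. The log2 fold change against control livers was 0.19 (standard error 0.189, adjusted p = 0.565) in tumors labelled DKO and 0.06 (standard error 0.189, adjusted p = 0.917) in tumors labelled TKO by edgeR's quasi-likelihood test. Both differences were no larger than about 1 standard error.

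Target genes of HNF4A were read next, from a list of 24 genes for apolipoproteins, clotting factors, bile acid and glucose enzymes and other liver proteins, of which all were tested. edgeR's quasi-likelihood test called 0 of them in any comparison, with an unadjusted p under 0.05 for 6, 2, 6 and 2 genes in tumors labelled DKO, tumors labelled TKO and all tumors against control livers and between the tumor genotypes. DESeq2 called 3, 1, 2 and 0 and voom 3, 0, 3 and 0. Their median log2 fold change was -0.41, -0.25 and -0.30 against control livers and 0.11 between the tumor genotypes, beside 0.02, 0.02, 0.02 and 0.01 over all genes. The gene with the highest change in all tumors was Apoa4, an apolipoprotein of triglyceride-rich particles, at 205, 184, 196 and 207 CPM in control livers, 3240, 1630, 590 and 427 CPM in tumors labelled DKO and 1900, 867, 104 and 272 CPM in tumors labelled TKO. All tumors labelled DKO lay above the control livers, while TKO 3 lay below them. Its log2 fold change in all tumors was 2.44 (standard error 0.756, adjusted p = 0.0872, edgeR's quasi-likelihood test). Without TKO 3 the adjusted p by edgeR's quasi-likelihood test was 0.0350, and over the alternatives the adjusted p ran from 0.00342 to 0.231. With the sex-linked covariate its log2 fold change was 1.54. Pck1, the rate-limiting enzyme of gluconeogenesis, was the lowest, at 1470, 795, 1030 and 2020 CPM in control livers, 567, 142, 1200 and 62.8 CPM in tumors labelled DKO and 228, 542, 759 and 165 CPM in tumors labelled TKO. Only DKO 3 reached into the range of the control livers. For Pck1 the log2 fold change in all tumors was -1.54 (standard error 0.631, adjusted p = 0.168, edgeR's quasi-likelihood test).

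The FOXA genes, which encode the pioneer factors of the endoderm and liver, differed from one another. Foxa2 (Entrez 15376, chromosome 2 from 147868613 to 147872705, minus strand) was at 20.9, 31.5, 28.9 and 26.6 CPM in control livers, 19.6, 19.8, 18.5 and 19 CPM in tumors labelled DKO and 16.2, 23.2, 24.5 and 18.6 CPM in tumors labelled TKO. Every tumor labelled DKO was below the lowest control liver, control 1, and these 4 tumors lay close to each other, whereas TKO 2 and TKO 3 reached above control 1. The nearest libraries, control 1 and DKO 2, were 1.14 CPM apart, with a counting error of 1.77 CPM for this gap. Its log2 fold change was -0.49 (standard error 0.158, adjusted p = 0.0935) in tumors labelled DKO, -0.39 (standard error 0.157, adjusted p = 0.252) in tumors labelled TKO and -0.44 (standard error 0.134, adjusted p = 0.0860) in all tumors by edgeR's quasi-likelihood test. DESeq2 gave an adjusted p of 0.0440 for all tumors, and over the alternatives the adjusted p ran from 0.0309 to 0.253.

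Foxa3 (Entrez 15377, chromosome 7 from 19598631 to 19608887, minus strand) was at 94, 55.3, 82.9 and 71.1 CPM in control livers, 112, 146, 82.9 and 112 CPM in tumors labelled DKO and 138, 178, 47.8 and 64.4 CPM in tumors labelled TKO. DKO 2, TKO 1 and TKO 2 were highest, TKO 3 was the lowest of all libraries, and the groups overlapped. The log2 fold change was 0.58 (standard error 0.359, adjusted p = 0.352) in tumors labelled DKO and 0.50 (standard error 0.359, adjusted p = 0.525) in tumors labelled TKO by edgeR's quasi-likelihood test. Foxa1 (Entrez 15375, chromosome 12 from 58641618 to 58647108, minus strand) was at 16.2, 23, 27.2 and 14.1 CPM in control livers, 16.9, 30.5, 18.9 and 16.9 CPM in tumors labelled DKO and 19.8, 16.2, 17.7 and 26.9 CPM in tumors labelled TKO. DKO 2, control 3 and TKO 4 were highest, and the groups overlapped. Its log2 fold change was 0.05 (standard error 0.257, adjusted p = 0.932) in tumors labelled DKO and 0.00 (standard error 0.257, adjusted p = 0.997) in tumors labelled TKO by edgeR's quasi-likelihood test, and the sign turned under some alternatives.

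Read as shares of the FOXA total per kilobase, Foxa3 made up 67.3% ± 8.20 of it in control livers, 78.9% ± 2.75 in tumors labelled DKO and 73.7% ± 12.9 in tumors labelled TKO. Foxa2 made up 21.2% ± 5.46, 11.9% ± 2.05 and 15.2% ± 8.19, and Foxa1 11.6% ± 3.46, 9.26% ± 1.77 and 11.1% ± 5.80. In single libraries the share of Foxa2 was 14.7%, 27.9%, 19.9% and 22.2% in control livers, 12.1%, 9.35%, 14.4% and 11.7% in tumors labelled DKO and 8.43%, 9.58%, 26.3% and 16.4% in tumors labelled TKO. DKO 1 to 4, TKO 1 and TKO 2 had a smaller share of Foxa2 than any control liver, with DKO 3 close to control 1 and TKO 1 the lowest, while TKO 3 and TKO 4 lay among the control livers. The difference in shares was not tested.

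Cebpb (Entrez 12608, chromosome 2 from 167514415 to 167515918, plus strand, a gene of 1 exon) encodes the C/EBP factor of the acute-phase response and liver regeneration. It was at 44.6, 63.1, 28.8 and 40.4 CPM in control livers 1 to 4, 20.5, 17.2, 23.2 and 30.7 CPM in tumors labelled DKO and 21.5, 20.3, 21.6 and 34.2 CPM in tumors labelled TKO. DKO 4 and TKO 4 reached above the lowest control liver, control 3, and the other 6 tumors were below all control livers. Cebpb fell in the 8 tumors to a level 1.87-fold lower than in control livers (log2 fold change -0.90, standard error 0.214, adjusted p = 0.0491, edgeR's quasi-likelihood test). Against the same control livers the log2 fold change was -0.95 (standard error 0.256, adjusted p = 0.0659) in tumors labelled DKO and -0.85 (standard error 0.256, adjusted p = 0.156) in tumors labelled TKO by edgeR's quasi-likelihood test, neither of them called. In tumors labelled DKO 2 of 21 alternatives called Cebpb, DESeq2 with an adjusted p of 0.0146 and voom with 0.0480, and the alternatives reached 0.182. The call in all tumors was lost without control 1, 2, 3 or 4 (adjusted p = 0.0841, 0.162, 0.146 and 0.0775), without DKO 1, 2, 3 or 4 (adjusted p = 0.0809, 0.0861, 0.0579 and 0.0535) and without TKO 1 or 2 (adjusted p = 0.0842 and 0.0838) in edgeR's quasi-likelihood test. Total counts as scaling gave an adjusted p of 0.154 and the covariate from sex-linked genes 0.0812, and the 20 alternatives ran from 0.00628 (DESeq2) to 0.162. An exon of Cebpb overlaps an exon of Tmem189 on the opposite strand, and the strand setting of the counting is not given in the sources used here, so reads of these genes cannot be told apart.

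Cebpa (Entrez 12606, chromosome 7 from 35904312 to 35906945, plus strand, 1 exon) encodes the C/EBP factor that holds hepatocytes out of the cell cycle and drives metabolic genes. It was at 201, 354, 353 and 256 CPM in control livers, 137, 177, 147 and 166 CPM in tumors labelled DKO and 198, 285, 281 and 115 CPM in tumors labelled TKO. Each tumor labelled DKO was below every control liver, TKO 1 and TKO 4 were below them as well, and TKO 2 and TKO 3 lay within their range. The log2 fold change was -0.89 (standard error 0.276, adjusted p = 0.0864) in tumors labelled DKO and -0.41 (standard error 0.275, adjusted p = 0.493) in tumors labelled TKO by edgeR's quasi-likelihood test. In tumors labelled DKO the adjusted p of edgeR's quasi-likelihood test was 0.0484 without TKO 4 and 0.0398 in a fit of the 8 libraries of the comparison, DESeq2 gave 0.0265 and voom 0.0239, and the 21 alternatives ran to 0.218. Between the tumor genotypes the difference was 0.48 on the log2 scale (standard error 0.275, adjusted p = 0.612, edgeR's quasi-likelihood test), so it was not shown to differ between them.

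Genes that FOXA and C/EBP factors are known to control, 22 in the list and all tested, cover albumin, transthyretin, gluconeogenic and urea cycle enzymes and acute-phase proteins. 1 of them was called in tumors labelled DKO, Igfbp1, and 0 in the other comparisons, by edgeR's quasi-likelihood test, with an unadjusted p under 0.05 for 6, 5, 9 and 2 genes. DESeq2 called 4, 3, 4 and 0 and voom 3, 0, 3 and 0. The median log2 fold change of the list was -0.55, -0.48 and -0.48 against control livers and -0.24 between the tumor genotypes. Igfbp1, a secreted binding protein of insulin-like growth factors that rises in fasting, was at 20, 40.4, 11.6 and 29.4 CPM in control livers, 164, 353, 133 and 505 CPM in tumors labelled DKO and 26.9, 195, 21.1 and 56.7 CPM in tumors labelled TKO. All 4 tumors labelled DKO were above every control liver, and of the tumors labelled TKO so were TKO 2 and TKO 4. It rose in tumors labelled DKO by 3.51 on the log2 scale (standard error 0.739, adjusted p = 0.0425, edgeR's quasi-likelihood test), against 1.57 (adjusted p = 0.286) in tumors labelled TKO. Without control 1, 2, 3 or 4 the adjusted p by edgeR's quasi-likelihood test was 0.0625, 0.134, 0.131 and 0.0694, without DKO 1, 2 or 4 it was 0.0851, 0.0949 and 0.0713, and without TKO 1 it was 0.0511, each time losing the call, and without TKO 3 the change in all tumors passed, with adjusted p = 0.0275. With the sex-linked covariate the adjusted p was 0.0868, and over the alternatives it ran from 1.59e-05 to 0.134 in tumors labelled DKO and from 0.000622 to 0.193 in all tumors. The summed level of the list followed Alb, its most abundant gene, at 98661, 147590, 149003 and 126111 CPM in control livers, 334331, 232597, 141290 and 127212 CPM in tumors labelled DKO and 186366, 251174, 101798 and 50968 CPM in tumors labelled TKO.

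Nr1h4 (Entrez 20186, chromosome 10 from 88916979 to 88996330, minus strand) encodes FXR, the bile acid receptor. It was at 109, 146, 148 and 118 CPM in control livers 1 to 4, 76.8, 65, 93.1 and 53.9 CPM in tumors labelled DKO and 88.5, 88.3, 107 and 81.7 CPM in tumors labelled TKO. All 8 tumors were below all 4 control livers, with TKO 3 just under control 1 and DKO 4 the lowest. TKO 3 and control 1 were 1.80 CPM apart, with a counting error of 4.03 CPM for this gap, and DKO 3 and control 1 were 15.6 CPM apart, with a counting error of 3.68 CPM. Nr1h4 fell 1.80-fold in tumors labelled DKO (log2 fold change -0.85, standard error 0.179, adjusted p = 0.0425) and 1.60-fold in all tumors (log2 fold change -0.68, standard error 0.151, adjusted p = 0.0444) by edgeR's quasi-likelihood test. In tumors labelled TKO the log2 fold change was -0.51 (standard error 0.178, adjusted p = 0.198, edgeR's quasi-likelihood test), which did not pass, and the genotypes differed by 0.34 (standard error 0.178, adjusted p = 0.585).

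The call for Nr1h4 in tumors labelled DKO was lost without control 2, 3 or 4 (adjusted p = 0.134, 0.131 and 0.0657), without DKO 1, 2 or 4 (adjusted p = 0.0960, 0.105 and 0.0718) and without TKO 1 (adjusted p = 0.0535), all by edgeR's quasi-likelihood test. In all tumors it was lost without control 1, 2, 3 or 4 (adjusted p = 0.0620, 0.144, 0.161 and 0.0681), DKO 1, 2 or 4 (adjusted p = 0.0750, 0.0806 and 0.0540) and TKO 1, 2 or 4 (adjusted p = 0.0786, 0.0770 and 0.0524) by the same test of edgeR. Total counts as scaling gave an adjusted p of 0.0764 and 0.109, the sex-linked covariate 0.104 and 0.0771, and no filter on low counts 0.0538 in all tumors. Over the alternatives the adjusted p ran from 0.000971 to 0.134 in tumors labelled DKO, called in 12 of 21, and from 0.00229 to 0.161 in all tumors, called in 7 of 20. The log2 fold change of Nr1h4 stayed between -0.99 and -0.73 in tumors labelled DKO and between -0.76 and -0.57 in all tumors.

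FXR target genes, a list of 17 that holds bile acid transporters, the small heterodimer partner Nr0b2 and enzymes of bile acid synthesis that FXR represses through it, were all tested. edgeR's quasi-likelihood test called 0 of them in any comparison, the unadjusted p was under 0.05 for 7, 4, 6 and 1, DESeq2 called 3, 1, 3 and 0 and voom 4, 0, 4 and 0. Their median log2 fold change was 0.05 in tumors labelled DKO, -0.21 in tumors labelled TKO, -0.12 in all tumors and 0.00 between the tumor genotypes. Slc51b, the beta chain of the bile acid exporter at the basolateral membrane, had the highest change in all tumors, with 0.445, 0.369, 0.542 and 0.732 CPM in control livers, 7.74, 0.316, 0.710 and 0.236 CPM in tumors labelled DKO and 1.69, 2.91, 0.153 and 0.224 CPM in tumors labelled TKO. DKO 1, TKO 1 and TKO 2 stood above the control livers and the other tumors among or below them. Cyp8b1, the sterol 12-hydroxylase that sets the share of cholic acid, was the lowest, at 135, 792, 205 and 92.8 CPM in control livers, 34.9, 163, 118 and 31.6 CPM in tumors labelled DKO and 124, 106, 480 and 57.3 CPM in tumors labelled TKO. Control 2 and TKO 3 were high and the groups overlapped. The log2 fold changes in all tumors were 1.64 (standard error 1.04, adjusted p = 0.371) for Slc51b and -1.24 (standard error 0.674, adjusted p = 0.293) for Cyp8b1 by edgeR's quasi-likelihood test. Both hung on 1 library, since without control 2 the log2 fold change of Cyp8b1 was -0.16, and without DKO 1 that of Slc51b was 0.45, and Slc51b had counts of only 3 to 10 in control livers and 2 to 4 in DKO 2, DKO 4, TKO 3 and TKO 4. With voom and with the sex-linked covariate the log2 fold change of Slc51b was 0.84 and 0.86. The list summed to 4686, 6389, 5368 and 5010 CPM in control livers, 4081, 3443, 3765 and 4026 CPM in tumors labelled DKO and 3311, 3548, 5107 and 3960 CPM in tumors labelled TKO, with Slc27a5, which joins bile acids to coenzyme A, as its most abundant gene. All tumors except TKO 3 were below the lowest control liver for this sum.

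Nr1i3 (Entrez 12355, chromosome 1 from 173144101 to 173150832, plus strand) encodes CAR, the receptor that answers to foreign compounds. It was at 50.4, 105, 102 and 73.8 CPM in control livers, 35.6, 26.6, 29.4 and 64.8 CPM in tumors labelled DKO and 24.2, 33.5, 57 and 36.3 CPM in tumors labelled TKO. DKO 4 and TKO 3 were above control 1, and the other 6 tumors were below all control livers. Its log2 fold changes were the most negative of the members, -1.08 (standard error 0.336, adjusted p = 0.0867) in tumors labelled DKO, -1.13 (standard error 0.337, adjusted p = 0.154) in tumors labelled TKO and -1.11 (standard error 0.279, adjusted p = 0.0554) in all tumors by edgeR's quasi-likelihood test, so no call was made. Without DKO 4 or TKO 3, the tumors nearest to the control livers, the adjusted p in all tumors was 0.0457 and 0.0220 by edgeR's quasi-likelihood test. DESeq2 called Nr1i3 in tumors labelled DKO, in tumors labelled TKO and in all tumors, with adjusted p = 0.0296, 0.0421 and 0.00811, where the alternatives reached 0.220, 0.362 and 0.191. Exons of Nr1i3 overlap those of Tomm40l on the opposite strand, and reads of these genes cannot be told apart here.

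CAR target genes, 22 in the list and all tested, are cytochromes P450, conjugating enzymes and transporters of drug clearance. 0 of them were called by edgeR's quasi-likelihood test in any comparison, with an unadjusted p under 0.05 for 6, 3, 6 and 0, and DESeq2 called 4, 2, 5 and 0 and voom 4, 0, 5 and 0. The median log2 fold change was 0.30, -0.22 and 0.03 against control livers and -0.25 between the tumor genotypes. Cyp2c54, a P450 of the Cyp2c family, was the lowest, at 345, 657, 575 and 388 CPM in control livers, 54.3, 73.2, 141 and 221 CPM in tumors labelled DKO and 46.1, 69.4, 281 and 176 CPM in tumors labelled TKO. All 8 tumors were below all control livers. Its mean level was 4.01-fold lower in tumors labelled DKO and 3.43-fold lower in tumors labelled TKO, and the log2 fold change was -1.89 (standard error 0.457, adjusted p = 0.0505) in all tumors by edgeR's quasi-likelihood test, in a family of near-identical copies between which reads may have been divided. Without TKO 3 the adjusted p of edgeR's quasi-likelihood test was 0.0172, and under the alternatives the adjusted p ran from 0.00235 to 0.164. Akr1b7, an aldo-keto reductase, was the highest, at 3.41, 0.492, 1.63 and 0.586 CPM in control livers, 9.51, 9.02, 2.48 and 116 CPM in tumors labelled DKO and 2.17, 3.55, 0.767 and 28.6 CPM in tumors labelled TKO. DKO 4 and TKO 4 stood far above all other libraries. For Akr1b7 the log2 fold change in all tumors was 3.44 (standard error 1.28, adjusted p = 0.136, edgeR's quasi-likelihood test). It was 4.17 without control 1, 2.31 without DKO 4, 2.43 without TKO 4 and 1.98 with voom.

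Nr1i3 is also on a list of 16 genes of the pericentral liver that depend on beta-catenin, and on it Nr1i3 had the lowest log2 fold change in all tumors while 13 of the 16 were above 0. The median log2 fold change of the list was 0.84, 1.09 and 1.15 in tumors labelled DKO, tumors labelled TKO and all tumors against control livers and 0.12 between the tumor genotypes, opposite in direction to Nr1i3 against control livers. edgeR's quasi-likelihood test called 0 of these genes in any comparison, with an unadjusted p under 0.05 for 1, 4, 2 and 0, and DESeq2 called 1, 1, 1 and 0 and voom 1, 0, 1 and 0. The gene called by DESeq2 and by voom was each time Nr1i3 itself, which was lower. So was the gene with an unadjusted p under 0.05 in tumors labelled DKO. No gene of the list was called higher. The sum of the list, with Cyp2e1 as the most abundant gene, was 9366, 14663, 12938 and 9013 CPM in control livers, 1147, 10338, 3991 and 28109 CPM in tumors labelled DKO and 2080, 1761, 9069 and 37267 CPM in tumors labelled TKO. DKO 4 and TKO 4 were above every control liver, and DKO 1, DKO 3, TKO 1 and TKO 2 were below them. The gene with the highest change was Rhbg, an ammonium transporter of the cells around the central vein, at 10.8, 7.62, 7.25 and 9.15 CPM in control livers, 6.75, 81.7, 6.80 and 143 CPM in tumors labelled DKO and 6.39, 5.40, 6.98 and 276 CPM in tumors labelled TKO. DKO 2, DKO 4 and TKO 4 were high, and the other 5 tumors were below all control livers. Rhbg had a log2 fold change of 2.93 in all tumors, with a standard error of 1.28 and adjusted p = 0.194 by edgeR's quasi-likelihood test, and of 1.14 without TKO 4 and 0.97 with voom. Nr1i3 was at 64.8 and 36.3 CPM in DKO 4 and TKO 4, where this sum was highest, and at 57.0 CPM in TKO 3.

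Ppara (Entrez 19013, chromosome 15 from 85565413 to 85633249, plus strand) encodes the receptor that turns on fatty acid oxidation in fasting. It was at 322, 329, 432 and 356 CPM in control livers, 233, 345, 256 and 283 CPM in tumors labelled DKO and 337, 231, 232 and 309 CPM in tumors labelled TKO. Control 3 was highest, DKO 2 and TKO 1 lay among the control livers and the other 6 tumors below them. The log2 fold change was -0.36 (standard error 0.189, adjusted p = 0.262) in tumors labelled DKO and -0.37 (standard error 0.189, adjusted p = 0.351) in tumors labelled TKO by edgeR's quasi-likelihood test. PPARA target genes, 26 in the list and all tested, are enzymes of peroxisomal and mitochondrial fatty acid oxidation and genes of lipid storage, and edgeR's quasi-likelihood test called 0 of them in any comparison, with an unadjusted p under 0.05 for 10, 4, 8 and 6. DESeq2 called 6, 1, 4 and 0 and voom 5, 0, 3 and 0. Their median log2 fold change was -0.31 in tumors labelled DKO, -0.22 in tumors labelled TKO and -0.39 in all tumors, and 0.35 between the tumor genotypes, where all genes were at 0.01. The list summed to 6074, 11432, 10599 and 8943 CPM in control livers, 6028, 7160, 5189 and 6026 CPM in tumors labelled DKO and 9186, 6350, 9412 and 7876 CPM in tumors labelled TKO.

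At the ends of the PPARA list, Fgf21, a hormone that the liver releases in fasting, was at 1.11, 2.95, 2.37 and 2.05 CPM in control livers, 7.13, 6.49, 0.769 and 7.31 CPM in tumors labelled DKO and 7.72, 18.8, 2.76 and 7.01 CPM in tumors labelled TKO. DKO 3 was below the control livers, TKO 3 among them and the other 6 tumors above. Cyp4a12a, a male-predominant fatty acid hydroxylase, was at 476, 488, 794 and 798 CPM in control livers, 86.2, 74.2, 530 and 30 CPM in tumors labelled DKO and 182, 60.9, 801 and 595 CPM in tumors labelled TKO. DKO 3, TKO 3 and TKO 4 were at the level of the control livers and the other 5 tumors below all of them. In all tumors the log2 fold changes were 1.74 (standard error 0.605, adjusted p = 0.117) for Fgf21 and -1.23 (standard error 0.707, adjusted p = 0.324) for Cyp4a12a by edgeR's quasi-likelihood test. Without DKO 3 the log2 fold change of Cyp4a12a was -1.99, and with voom it was -2.12.

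**Figure D2:**
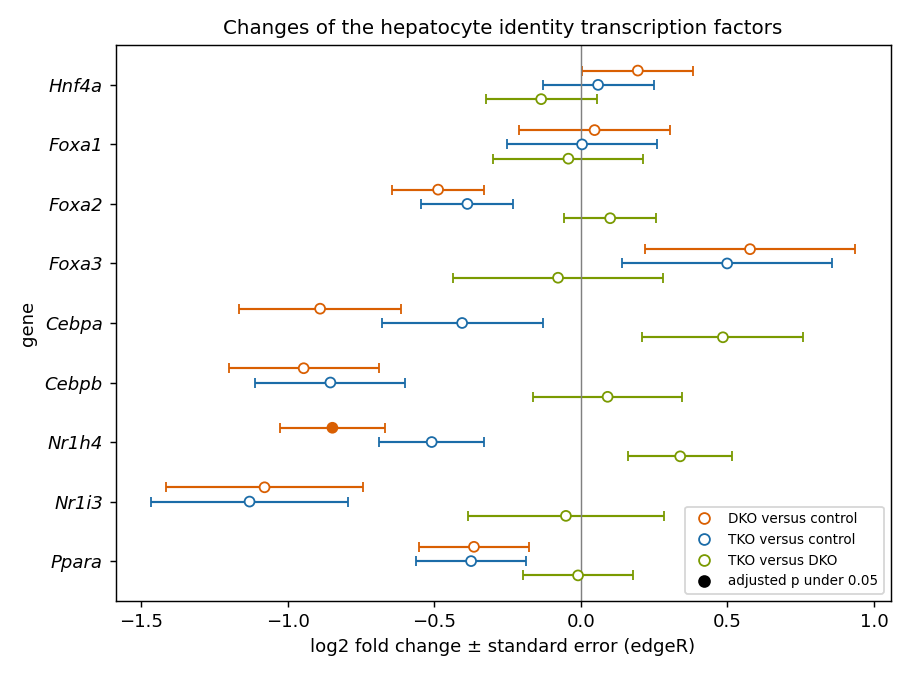
Log2 fold change (horizontal axis) with standard error from edgeR for each of the 9 transcription factors, for tumors labelled DKO and TKO against control livers and between the tumor genotypes, with filled points for an adjusted p under 0.05. Nr1h4 in tumors labelled DKO is the filled point, and the comparison of the tumor genotypes has none.

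Outside the 9 members, 30 other transcription factors of the hepatocyte were listed, among them HNF1, ONECUT and GATA factors, the pregnane X receptor, a liver X receptor and the clock-driven PAR-domain factors, and all were tested. edgeR's quasi-likelihood test called 0 of them in any comparison, with an unadjusted p under 0.05 for 10, 2, 8 and 6. DESeq2 called 4, 0, 2 and 0 and voom 9, 0, 6 and 0. Their median log2 fold change was -0.21, -0.17 and -0.18 against control livers and 0.16 between the tumor genotypes. Nr0b2, the partner through which FXR represses bile acid synthesis, had the highest change in all tumors, at 9.49, 5.53, 10.5 and 13.5 CPM in control livers, 40.2, 12.3, 11.7 and 22.2 CPM in tumors labelled DKO and 11.1, 23.7, 33.1 and 11.4 CPM in tumors labelled TKO. Nr0b2 was above all control livers in DKO 1, DKO 4, TKO 2 and TKO 3, with a log2 change of 1.07 (standard error 0.413, adjusted p = 0.148, edgeR's quasi-likelihood test) in all tumors. Dbp, a PAR-domain factor whose level follows the time of day, was the lowest, at 49, 77.7, 124 and 44.3 CPM in control livers, 4.98, 4.90, 13.3 and 38.9 CPM in tumors labelled DKO and 62.9, 47.5, 13.3 and 44.2 CPM in tumors labelled TKO. All tumors labelled DKO and 2 labelled TKO, TKO 3 and TKO 4, were below every control liver, the latter by little. On the log2 scale Dbp differed by -2.24 (standard error 0.666, adjusted p = 0.0799) in tumors labelled DKO and -1.53 (standard error 0.531, adjusted p = 0.117) in all tumors by edgeR's quasi-likelihood test. In all tumors voom gave a log2 fold change of -2.16 with an adjusted p of 0.0171, and DESeq2 gave an adjusted p of 0.0477. Over the alternatives the adjusted p in all tumors reached 0.343. The hour of tissue collection is not given in the sources used here.

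Among 18 receptor partners and cofactors, which include the RXR partners of FXR, CAR and PPARA, the PGC1 coactivators, histone acetyltransferases and corepressors, 1 was called lower in tumors labelled DKO and 0 in the other comparisons by edgeR's quasi-likelihood test, with an unadjusted p under 0.05 for 3, 2, 3 and 2. DESeq2 called 1, 0, 1 and 0 and voom 1, 0, 2 and 0. The median log2 fold change was 0.07, 0.01 and 0.07 against control livers and 0.05 between the tumor genotypes, close to that of all genes. The called gene was Ppargc1b, a PGC1 coactivator of mitochondrial and lipid genes, at 6.38, 17.2, 17.3 and 11.3 CPM in control livers, 3.37, 3.08, 4.14 and 2.42 CPM in tumors labelled DKO and 9.04, 14.6, 9.97 and 3.73 CPM in tumors labelled TKO. Each tumor labelled DKO was below every control liver, and of the tumors labelled TKO so was TKO 4. Ppargc1b fell 3.99-fold in tumors labelled DKO (log2 standard error 0.405, adjusted p = 0.0425, edgeR's quasi-likelihood test), against a log2 fold change of -0.48 with adjusted p = 0.576 in tumors labelled TKO, and the genotypes differed by 1.52 (standard error 0.401, adjusted p = 0.407). Without control 2, 3 or 4 the adjusted p by edgeR's quasi-likelihood test was 0.134, 0.126 and 0.0639, without DKO 1, 2 or 4 it was 0.0960, 0.0982 and 0.0724, and without TKO 1 it was 0.0535, each time losing the call. With the sex-linked covariate the adjusted p was 0.0987, and over the alternatives it ran from 0.000211 to 0.134.

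Between the tumor genotypes, which differ in Rb1 by their labels, 0 of 9 members were called by edgeR's quasi-likelihood test, 0 had an unadjusted p under 0.05, and DESeq2 and voom called 0. The log2 fold changes of tumors labelled TKO against tumors labelled DKO were -0.14 for Hnf4a, -0.04 for Foxa1, 0.10 for Foxa2, -0.08 for Foxa3, 0.48 for Cebpa, 0.09 for Cebpb, 0.34 for Nr1h4, -0.05 for Nr1i3 and -0.01 for Ppara. Their standard errors ran from 0.157 (Foxa2) to 0.358 (Foxa3). Cebpa and Nr1h4 had the largest differences, both higher in tumors labelled TKO, and the adjusted p values of the 9 members lay between 0.585 and 0.991 by edgeR's quasi-likelihood test. Over all genes the test called 0, with 1250 at an unadjusted p under 0.05, and DESeq2 called 56 genes and voom 0.

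Some members moved together from library to library and others did not. Over the 36 pairs of members and the 12 libraries, Pearson's r of log2 CPM ran from -0.66 for Hnf4a and Foxa1 to 0.84 for Foxa2 and Nr1i3, with a median of 0.03, and after removing the group means it ran from -0.75 to 0.74 with a median of -0.05. Foxa2, Cebpa, Nr1h4 and Nr1i3, grouped after the values were seen, had r from 0.61 to 0.84 in all 6 pairs over the libraries and from 0.0832 to 0.74 within groups, and the other 30 pairs had r from -0.66 to 0.71 over the libraries and from -0.75 to 0.69 within groups. Foxa2 and Cebpa had r of 0.84 over the libraries and 0.74 within groups, and Foxa2 and Nr1i3 0.84 and 0.67. The values of a pair come from the same library and share its depth and scaling. When the 12 libraries were ranked for each member, control 2 and control 3 had the highest median rank, 11 of 12, and TKO 4 the lowest, 4. TKO 3 had the highest median rank of the tumors, 8, and control 1 the lowest of the control livers, 7. Summed over the 9 members, the level was 1499, 1658, 1849 and 1673 CPM in control livers, 1466, 1454, 1318 and 1584 CPM in tumors labelled DKO and 1470, 1677, 1484 and 1228 CPM in tumors labelled TKO, and most of the sum was Hnf4a, Ppara and Cebpa.

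For the members, tested genes most like them over the 12 libraries were found by Pearson's r of log2 CPM, as a description that follows the group differences too. They were Ski (0.90) and Smpd1 (0.90) for Hnf4a, Cenpk (0.86) and Chtop (0.81) for Foxa1, Klkb1 (0.95) and Phlda1 (0.93) for Foxa2, and Cnot10 (0.96) for Foxa3. Klkb1 encodes plasma prekallikrein, a product of the liver. Mul1 (0.95) and Map2k2 (0.93) were most like Cebpa, and Cox18 (0.93) and Klf2 (0.91) most like Cebpb. For the receptors they were C730002L08Rik (0.97) and Mup4 (0.97) for Nr1h4, Pemt (0.96) and Qdpr (0.95) for Nr1i3, and Naa50 (0.91) and Gys2 (0.89) for Ppara. Mup4 encodes a major urinary protein from a family of near-identical copies, Pemt makes phosphatidylcholine in the liver and Gys2 is the liver glycogen synthase.

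The promoters of the members were looked at for letters they share, since Nr1h4 and Cebpb were called together in all tumors. RefSeq start sites (GRCm38.p6) gave 12 windows of 250 bases before a start for 9 of 9 members, and each window was found once, without a mismatch, in mm9. The motifs, searched on both strands, were chosen after the expression values had been seen. The HNF4 motif CAAAGTCCA was in 0 of the 12 windows and in 0.384% of the 32851 windows of all 27025 genes, the C/EBP motif TTGCNNAA in 0 and 9.56%, and the E2F motifs TTTCCCGC and TTTGGCGC in 0, with 0.895% and 0.417% of all windows. The FOXA motif TGTTTAC was in 1 window, of Foxa1 (3.17% of all windows), and TATAAA in 3, of Cebpa, Foxa2 and Foxa3 (12.4%). AGGTCA, only a part of a full nuclear receptor motif, was in 1, of Nr1h4 (14.0%). GTTAAT, only a part of the full HNF1 motif, was in 3, of Foxa2, Hnf4a and Nr1h4 (6.43%). A match is a stretch of letters and not a binding site, and a window without one says nothing about the factor. The windows of the called genes Nr1h4 and Cebpb are shown, with that of Cebpa for comparison with Cebpb, 5′ to 3′ on the strand of the gene and with matched motifs in capitals. That of Nr1h4 (mm9, chr10:88969404-88969653, minus strand, in an intron of the longer annotated form of Nr1h4) holds TGACCT, which is AGGTCA on the other strand, 214 bases before the start and GTTAAT 40 bases before it. It has 44.4% G and C and 5 CpG, against medians of 52.4% and 6 over all windows. That of Cebpb (chr2:167514165-167514414, plus strand, in an intron of Tmem189) has none of the motifs, 81.6% G and C and 41 CpG. That of Cebpa (chr7:35904062-35904311, plus strand, between genes) has TATAAA 30 bases before the start, 66.4% G and C and 22 CpG.
Nr1h4: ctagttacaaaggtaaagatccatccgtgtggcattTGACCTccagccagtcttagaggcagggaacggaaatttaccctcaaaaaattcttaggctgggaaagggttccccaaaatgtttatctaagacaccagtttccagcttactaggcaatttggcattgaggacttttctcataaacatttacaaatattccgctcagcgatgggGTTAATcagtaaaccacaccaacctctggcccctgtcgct
Cebpb: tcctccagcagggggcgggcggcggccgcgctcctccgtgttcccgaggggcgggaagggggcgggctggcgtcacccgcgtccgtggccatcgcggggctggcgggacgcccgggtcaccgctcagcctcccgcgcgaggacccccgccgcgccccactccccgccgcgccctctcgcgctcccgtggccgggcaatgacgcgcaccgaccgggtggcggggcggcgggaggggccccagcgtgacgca
Cebpa: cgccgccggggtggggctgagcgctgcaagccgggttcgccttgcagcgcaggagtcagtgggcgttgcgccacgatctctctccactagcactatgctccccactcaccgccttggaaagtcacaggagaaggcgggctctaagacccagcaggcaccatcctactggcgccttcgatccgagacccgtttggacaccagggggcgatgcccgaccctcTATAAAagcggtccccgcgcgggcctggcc

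Markers of liver cell types were read beside these results. Of 12 hepatocyte markers, all tested, 0 were called by edgeR's quasi-likelihood test in any comparison, with an unadjusted p under 0.05 for 3, 1, 2 and 1, and DESeq2 called 2, 1, 1 and 0 and voom 1, 0, 1 and 0. The median log2 fold change of these markers was -0.30, -0.22, -0.45 and -0.13. Their sum was 123138, 186536, 181200 and 158997 CPM in control livers, 425343, 277508, 175383 and 169896 CPM in tumors labelled DKO and 226610, 303779, 131992 and 73094 CPM in tumors labelled TKO. Alb, the most abundant of them, took from 4.82% (TKO 4) to 22.7% (DKO 1) of a library's counts. DKO 1, DKO 2, TKO 1 and TKO 2 were above every control liver in this sum and TKO 4 below every one. Alb had the highest log2 fold change of the list in all tumors, 0.62 (standard error 0.670, adjusted p = 0.622), and Ass1, an enzyme of the urea cycle, the lowest, -0.95 (standard error 0.446, adjusted p = 0.227), by edgeR's quasi-likelihood test. Hepatocyte markers were present in every library. Whether the hepatocyte content had a part in the result for Nr1h4 and Cebpb was not tested.

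Fetal and oncofetal hepatocyte genes, 11 of 16 tested, had 2 called higher in tumors labelled DKO and 0 in the other comparisons by edgeR's quasi-likelihood test, with an unadjusted p under 0.05 for 6, 3, 6 and 3. DESeq2 called 5, 2, 5 and 1 and voom 2, 0, 2 and 0. Their median log2 fold change was 2.14, 1.21 and 1.90 against control livers and 0.33 between the tumor genotypes, and they summed to 89.5, 128, 89.9 and 225 CPM in control livers, 404, 614, 242 and 931 CPM in tumors labelled DKO and 1077, 829, 132 and 122 CPM in tumors labelled TKO. Afp, the fetal counterpart of albumin, was at 2.37, 3.81, 2.44 and 4.61 CPM in control livers, 29.7, 29.7, 5.91 and 104 CPM in tumors labelled DKO and 3.80, 6.25, 1.69 and 4.03 CPM in tumors labelled TKO. All tumors labelled DKO were above the control livers and DKO 4 was the highest, while the tumors labelled TKO overlapped with them. Scd2, a fatty acid desaturase of the fetal liver, was at 50.4, 38.5, 64.7 and 63.5 CPM in control livers, 193, 288, 94.6 and 771 CPM in tumors labelled DKO and 217, 156, 52.7 and 77.1 CPM in tumors labelled TKO. All tumors but TKO 3 were above the control livers. Afp rose in tumors labelled DKO by 3.68 on the log2 scale (standard error 0.709, adjusted p = 0.0392) and Scd2 by 2.63 (standard error 0.602, adjusted p = 0.0486), by edgeR's quasi-likelihood test. The size of both hung on DKO 4, without which the log2 fold change was 2.72 for Afp and 1.82 for Scd2, and voom gave 2.02 for Scd2. For Afp the call was lost without control 1, 2, 3 or 4 (adjusted p = 0.0565, 0.134, 0.126 and 0.0642), DKO 1, 2 or 4 (0.0851, 0.0746 and 0.0548) or TKO 1 (0.0519), and for Scd2 without control 1, 2, 3 or 4 (0.0695, 0.145, 0.132 and 0.0791), DKO 1, 2 or 4 (0.0941, 0.1 and 0.0787) or TKO 1 or 2 (0.0535 and 0.0553), in edgeR's quasi-likelihood test. Total counts as scaling gave an adjusted p of 0.0627 for Scd2 and replicate numbers as a block 0.0670, and the covariate from sex-linked genes gave 0.0820 for Afp and 0.101 for Scd2, with ranges over the alternatives from 4.20e-06 to 0.134 for Afp and from 0.000329 to 0.145 for Scd2. In all tumors Afp passed without DKO 3 (adjusted p = 0.0396) and Scd2 without DKO 3 or TKO 3 (0.0445 and 0.0402), by edgeR's quasi-likelihood test.

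Of the cholangiocyte and progenitor markers 7 of 12 were tested, and 1, Prom1, was called higher in tumors labelled DKO and in all tumors by edgeR's quasi-likelihood test, with 0 called in the other comparisons and an unadjusted p under 0.05 for 2, 1, 2 and 1. DESeq2 called 2, 1, 2 and 1 and voom 2, 0, 2 and 0, and the median log2 fold change of the tested markers was 1.06, 0.76, 0.73 and -0.58. Prom1, a surface protein of progenitor cells, was at 3.56, 1.97, 2.78 and 2.12 CPM in control livers, 63.5, 28.5, 10.5 and 50.4 CPM in tumors labelled DKO and 8.98, 7.75, 1.84 and 3.88 CPM in tumors labelled TKO. All tumors but TKO 3 were above the control livers, and each tumor labelled DKO above each labelled TKO. It rose in tumors labelled DKO by 3.85 on the log2 scale (standard error 0.587, adjusted p = 0.0292) and in all tumors by 2.48 (standard error 0.529, adjusted p = 0.0444), by edgeR's quasi-likelihood test. The call in tumors labelled DKO was lost without control 2, 3 or 4 (adjusted p = 0.111, 0.109 and 0.0614) or DKO 1, 2 or 4 (0.0775, 0.0636 and 0.0517), and in all tumors without control 1 to 4 (0.0657, 0.137, 0.146 and 0.0778), DKO 1, 2 or 4 (0.0714, 0.0718 and 0.0543) or TKO 1 or 2 (0.0773 and 0.0733), in edgeR's quasi-likelihood test. With the sex-linked covariate the adjusted p was 0.0746 and 0.0698, and over the alternatives it ran from 2.75e-09 to 0.111 in tumors labelled DKO and from 5.86e-05 to 0.146 in all tumors. The list summed to 67.0, 47.7, 63.8 and 48.3 CPM in control livers, 284, 224, 218 and 166 CPM in tumors labelled DKO and 195, 216, 56.7 and 52.3 CPM in tumors labelled TKO, with Cdh1, E-cadherin, as its most abundant gene. Cdh1, which hepatocytes make as well, was at 22.5, 15.5, 8.88 and 12.3 CPM in control livers, 160, 145, 92.1 and 90.6 CPM in tumors labelled DKO and 130, 171, 20.9 and 7.53 CPM in tumors labelled TKO. TKO 3 and TKO 4 lay with the control livers or below, and the other 6 tumors above them. Its log2 fold change in all tumors was 2.76 (standard error 0.711, adjusted p = 0.0578) by edgeR's quasi-likelihood test. Its adjusted p by edgeR's quasi-likelihood test was 0.0260 without TKO 3 and 0.0383 without TKO 4, and over the alternatives the adjusted p ran from 0.000414 to 0.191. The part of these cells in the results for the 9 factors was not tested.

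Markers of non-epithelial cells gave 0 calls by edgeR's quasi-likelihood test in all comparisons. In tumors labelled DKO, tumors labelled TKO, all tumors and between the tumor genotypes, an unadjusted p under 0.05 was reached by 2, 1, 2 and 1 of 12 endothelial markers, 1, 1, 1 and 0 of 12 macrophage markers, 0, 0, 0 and 0 of 12 stellate cell and fibroblast markers, 2, 1, 1 and 1 of 10 tested lymphocyte markers, 1, 0, 0 and 0 of 5 tested neutrophil markers and 1, 1, 1 and 0 of 5 tested erythroid markers. DESeq2 called 2 endothelial markers in tumors labelled DKO and 2 in all tumors, 1 lymphocyte marker in each of the same comparisons, 1 erythroid marker in all tumors, and 0 of the macrophage, stellate and neutrophil markers. voom called 1 endothelial and 1 erythroid marker in each of those comparisons. In the same order of comparisons the median log2 fold change was 0.25, 0.44, 0.34 and 0.18 for endothelial, -0.70, -0.18, -0.40 and 0.37 for macrophage, 0.08, 0.19, 0.03 and 0.26 for stellate cell and fibroblast, -0.52, -0.20, -0.43 and 0.21 for lymphocyte, 0.54, 0.03, 0.26 and -0.48 for neutrophil and 0.31, 0.47, 0.31 and -0.01 for erythroid markers, against 0.02, 0.02, 0.02 and 0.01 over all genes. No marker of any list was at 0 in every library.

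The endothelial sum was 259, 202, 192 and 301 CPM in control livers, 232, 240, 386 and 250 CPM in tumors labelled DKO and 281, 302, 493 and 246 CPM in tumors labelled TKO. Eng, named as its most abundant gene, was below Clec4g in control 1, at 40.6 against 41 CPM, and in control 3, at 30.6 against 32.6 CPM. The macrophage sum was 761, 305, 363 and 717 CPM in control livers, 345, 281, 638 and 180 CPM in tumors labelled DKO and 269, 500, 820 and 276 CPM in tumors labelled TKO. The Kupffer cell lectin Clec4f, named as its most abundant gene, did not lead it in DKO 4, at 5.84 CPM against 25.2 CPM for Cd68. DKO 3 and TKO 3 had the highest endothelial and macrophage sums of their groups. The stellate cell and fibroblast sum, led by Dcn, was 380, 482, 331 and 562 CPM in control livers, 275, 228, 729 and 201 CPM in tumors labelled DKO and 268, 414, 578 and 375 CPM in tumors labelled TKO. The lymphocyte sum, led by Ptprc, was 42.6, 15.2, 14.7 and 29.4 CPM in control livers, 16.6, 13.6, 36.8 and 10.8 CPM in tumors labelled DKO and 19.4, 19.7, 25.9 and 17.1 CPM in tumors labelled TKO. Again DKO 3 and TKO 3 were the highest tumors of their genotypes. The neutrophil sum ran from 4.67 to 10 CPM in control livers, 4.83 to 25 CPM in tumors labelled DKO and 3.51 to 15.2 CPM in tumors labelled TKO, and the erythroid sum, led by Hbb-b1, from 565 to 729, 406 to 1520 and 562 to 1393 CPM. The groups overlapped in each of these sums. S100a9, named as the most abundant neutrophil gene, did not lead in every library. In DKO 3 Ngp was at 7.51 CPM against 4.2 CPM for S100a9, and in control 4 Csf3r was at 3.15 CPM against 2.42 CPM. The part of those cells in the levels of the 9 factors was not tested.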

How the data were processed

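The deposited table holds integer counts per Entrez gene for 12 libraries. Per the submitters' processing notes the authors aligned the reads with BWA to mm9 and counted them with featureCounts, and the strand setting is not given in the sources used here. Symbols were joined by Entrez identifier. Counts were scaled by TMM, filtered with filterByExpr and tested in 1 fit of all 12 libraries with edgeR 4.0.16 (quasi-likelihood) in R 4.3.3, with Benjamini-Hochberg adjustment over 13882 genes and a threshold of 0.05. The mean of both tumor groups against control livers is a contrast of this fit. The standard error is the log2 fold change over the root of F. Exon lengths come from GENCODE vM1 (mm9). The scripts were tested on simulated data, with changes put into the DKO group for some of the more abundant genes. Against control, the main test recovered 52.8% of genes with a log2 change of 1 in size and 94.6% with 2. It called 151 genes, 7 of them without a change put in. A gene with a log2 change of 1 can thus go uncalled.

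Alternatives were DESeq2 1.42.0, its size factors in edgeR, total counts, voom with quality weights (limma 3.58.1), other filters, an adjusted p of 0.1, the libraries of a comparison alone, replicate numbers as a block, a covariate from sex-linked genes, and leaving out each library. Xist was low and Ddx3y present in every library, so this covariate does not stand for a difference in sex. The sex-linked genes summed to 140 ± 19.3 CPM (mean ± SD) in control livers, 115 ± 7.76 in tumors labelled DKO and 108 ± 18.5 in tumors labelled TKO. Such a covariate can take up part of the group difference, so calls lost with it do not show a dependence on sex.

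The members and lists were chosen with earlier results of these data known. Lists were written from general knowledge, and some genes stand on more than 1 list. Genes were named by rule: all members, of each list the genes called in any comparison (at most 4) or else the genes with the highest and lowest change in all tumors, of each cell type list also the most abundant gene, for each member the 2 genes most like it, and the deleted and sex-linked genes. The most abundant genes of other lists, and the motifs, were chosen after values were seen. A single gene was named as the most abundant of a list for all libraries, and in single libraries another gene was higher in some lists. Some genes that fall under these rules are not reported here.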

Additional observations from a re-analysis of the deposited data

Results flagged for a closer look

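A sample apart from the other 3 of its group, in relation to the range of the group, was picked out by Dixon's ratio in 22 of 162 groups of 4, and for the 9 members in 2 of 27. Chance picks about 1 in 20 groups where values are normal and genes are not chosen by value. Most genes beside the members were named for their values, and CPM without logarithms was used, so more than that may come from the choice alone. It was 3 groups of control livers, 11 of tumors labelled DKO and 8 of tumors labelled TKO. For the members it was Foxa1 in DKO 2, at 30.5 CPM with 16.9 to 18.9 CPM in the other tumors labelled DKO, and Cebpb in TKO 4, at 34.2 CPM with 20.3 to 21.6 CPM in the others.

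Among target genes it was Slc51b in DKO 1 (7.74 CPM, others 0.236 to 0.710), Cyp8b1 in control 2 (792 CPM, others 92.8 to 205) and in TKO 3 (480 CPM, others 57.3 to 124), Akr1b7 in DKO 4 (116 CPM, others 2.48 to 9.51) and in TKO 4 (28.6 CPM, others 0.767 to 3.55), Fgf21 in DKO 3 (0.769 CPM, others 6.49 to 7.31), Cyp4a12a in DKO 3 (530 CPM, others 30 to 86.2) and Rhbg in TKO 4 (276 CPM, others 5.40 to 6.98). Among markers of other cells it was Eng in DKO 3 (83.1 CPM, others 26.9 to 34.4), Marco in TKO 3 (5.06 CPM, others 0.597 to 1.35), Ecm1 in DKO 3 (94.5 CPM, others 14.4 to 20.8), Klrb1c in control 3 (0.136 CPM, others 0.366 to 0.371, on counts of 2 against 3 to 5, which do not set it apart), Ms4a1 in DKO 3 (4.32 CPM, others 0.354 to 0.712), Ngp in DKO 3 (7.51 CPM, others 0.236 to 0.920) and in TKO 3 (2.15 CPM, others 0.569 to 0.671), and Epor in DKO 1 (0.537 CPM, others 1.42 to 1.58). Among sex-linked and deleted genes it was Kdm5d in TKO 1 (2.29 CPM, others 10.5 to 11.2), Eif2s3y in control 4 (32 CPM, others 45 to 47.1) and in TKO 4 (38.9 CPM, others 28.1 to 29.4), and Rb1 in DKO 1 (11.3 CPM, others 7.99 to 8.38). The causes were not tested.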

How the results depend on the processing

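Of 1721 values of single genes under the alternatives, those with a library left out kept their direction and their side of the threshold in 899, lost a call in 74, gained one in 11 and turned in 36, and those with another setting in 626, 15, 44 and 16. Genes called in tumors labelled DKO against control livers, 336, became 1460 at an adjusted p of 0.1, 1518 with DESeq2, 59 with total counts, 759 with the libraries of the comparison alone, 1804 with voom and 6 with the covariate from sex-linked genes. Members called there, 1, became 5, 4, 0, 2, 5 and 0. In tumors labelled TKO, 12 genes became 80 at an adjusted p of 0.1, 507 with DESeq2, 22 with no filter, 97 with voom and 5 with the sex-linked covariate, and 0 members became 1 with DESeq2. In all tumors, 344 genes became 1317 at an adjusted p of 0.1, 1422 with DESeq2, 61 with total counts, 1813 with voom and 4 with the sex-linked covariate, and 2 members became 4, 4, 0, 5 and 0, and 1 with no filter. Between the tumor genotypes 0 genes became 56 with DESeq2. With 1 library left out, genes called ran from 0 to 651 in tumors labelled DKO, 0 to 231 in tumors labelled TKO and 0 to 1019 in all tumors, and members called from 0 to 2, 0 to 0 and 0 to 3. For tumors against control livers a fit of the libraries of the comparison alone is the same fit and has no value of its own.

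Log2 fold changes that turned were, for Foxa1, -0.0894 in tumors labelled DKO, -0.20 in tumors labelled TKO and -0.15 in all tumors with voom, -0.00975 in tumors labelled TKO with DESeq2 and -0.0111 with its size factors, and 0.0947 between the tumor genotypes with total counts. Between the tumor genotypes Foxa3 became 0.0253 and Ppara 0.0174 with the sex-linked covariate, Nr1i3 0.0338 and Ppara 0.10 with total counts, and Nr1i3 0.0179 with voom. In all tumors Ptprc became 0.00490 and S100a9 -0.0267 with voom, and Uty 0.0231 with total counts. With a library left out the values ran for Foxa1 from -0.20 to 0.23 in tumors labelled DKO, -0.17 to 0.19 in tumors labelled TKO, -0.11 to 0.21 in all tumors and -0.21 to 0.20 between the tumor genotypes. They ran for Hnf4a in tumors labelled TKO from -0.0431 to 0.14, and between the tumor genotypes for Foxa3 from -0.44 to 0.17, Cebpb -0.12 to 0.26, Nr1i3 -0.32 to 0.31 and Ppara -0.12 to 0.11. In all tumors they ran for Ms4a1 from -1.87 to 0.12, Ptprc -0.56 to 0.0149, Csf3r -0.16 to 0.77, S100a9 -0.20 to 0.26 and Epor -0.25 to 0.0515. The causes were not tested.

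Libraries of the same number in different groups differ in genotype by their labels, so they are from different mice. Of 12 pairs with the same number 5 had a correlation of their deviations from the group means over 0.1 (range -0.17 to 0.37). The highest were DKO 3 with TKO 3 (0.37) and DKO 4 with TKO 4 (0.34). Pairs with different numbers ran from -0.35 (DKO 1 with TKO 4) to 0.32 (DKO 1 with TKO 2). Deviations within a group sum to 0 and are not independent, so these values do not decide whether the numbers pair libraries. With the replicate block 509 genes were called in tumors labelled DKO, 1 in tumors labelled TKO, 441 in all tumors and 0 between the tumor genotypes, and 1, 0, 2 and 0 members. Under the block Foxa1 became 0.00546 between the tumor genotypes and S100a9 -0.12 in all tumors, and the adjusted p of Scd2 in tumors labelled DKO was 0.0670 by edgeR's quasi-likelihood test. The block also moved log2 fold changes in all tumors to 1.68 for Apoa4, 0.78 for Slc51b, 1.87 for Akr1b7, 1.10 for Rhbg and -1.46 for Clec4f.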
